A study of Mus musculus with 10 samples.

Results

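The regions described here are 8812 of the 32293 regions of an H3K4me3 density table made for mouse embryonic stem cells. A region was taken when no region of the companion H3K4me2 or H3K4me1 tables lay within 500 bp and at least 1 other H3K4me3 region lay within 1000 bp on the same chromosome. They are called clustered regions below, and a chain of H3K4me3 regions linked by gaps of at most 1000 bp is called a run. The rule used positions only. How the regions of the tables were called is not given, so their positions may not be independent of the H3K4me3 signal. A further 7788 regions met the same distance rule for the other tables but had no H3K4me3 neighbour, and these solitary regions served as the closest comparison. Another 14740 regions lay near an H3K4me2 region but no H3K4me1 region, and 953 lay near an H3K4me1 region.

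H3K4me3 is trimethylation of lysine 4 on histone H3, deposited by SET1 and MLL complexes around the start sites of active or CpG-island promoters. Dimethylation and monomethylation of the same residue usually spread further, onto promoter flanks and enhancers. Dnmt3a is a de novo DNA methyltransferase whose ADD domain binds the H3 tail when lysine 4 is unmethylated and is repelled when it is methylated, and Dnmt3a2 is its shorter isoform, prominent in embryonic stem cells.

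The study profiled Dnmt3a2 (FLAG antibody) and H3K4me3 by ChIP-seq in Dnmt TKO cells, a J1 mouse embryonic stem cell derivative that lacks the DNA methyltransferases Dnmt1, Dnmt3a and Dnmt3b. All groups shared this knockout background and passages 7 to 10, and they differed in the Dnmt3a2 construct the cells expressed, labelled WT, WWD or R. The title of the series refers to an engineered domain of Dnmt3a that recognises histones, and its design text names a comparison of wild-type and mutant Dnmt3a2 with matched H3K4me3. The labels do not say which residues WWD and R change, which promoter drives the constructs or how much protein the cells made. Each construct had 2 Dnmt3a2 samples, labelled 1 and bulk without further explanation, and 1 H3K4me3 sample labelled 1. Each table held a single Dnmt3a2 column per construct, which could not be assigned to either sample.

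With 1 column per construct and assay there was no replicate check, so no test between constructs was run and no p-value is given. Levels are reads per region for every 10000000 reads in the library. Library totals ran from 17259400 reads (WWD) to 25254320 reads (R) for Dnmt3a2, and from 18801269 (WT) to 27424019 (R) for H3K4me3. Intervals in brackets are 95% intervals: for means and ratios they reflect the variation over 1 Mb segments of the genome, for shares they are exact Clopper-Pearson intervals. None of them covers variation between cultures, and PCR reads are not independent molecules. Background is part of every level, because the input sample was not used here. The tables carried no gene names, so markers of the cell type could not be checked.

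The clustered regions were mostly found in pairs and short chains (plot of spacing and run size). They belonged to 4958 runs, of which 3203 held 2 H3K4me3 regions, 1317 held 3, 358 held 4, 71 held 5, 8 held 6 and 1 held 7. Runs had a median span of 808 bp and reached 3012 bp at most. Clustered regions alone made up 2348 runs with 5495 of the members, while 3317 members shared their run with H3K4me3 regions that did lie near another table's regions. The gap to the nearest H3K4me3 region had a median of 378 bp, with the middle 50% of the gaps between 273 and 542 bp. No gap was under 132 bp, and 28.1% of the members had a gap of 200 to 299 bp, the fullest of the 100 bp bins. Since the chromatin fragments were 160 to 480 bp long, neighbours at these gaps can draw on the same fragments.

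**Figure D1:**
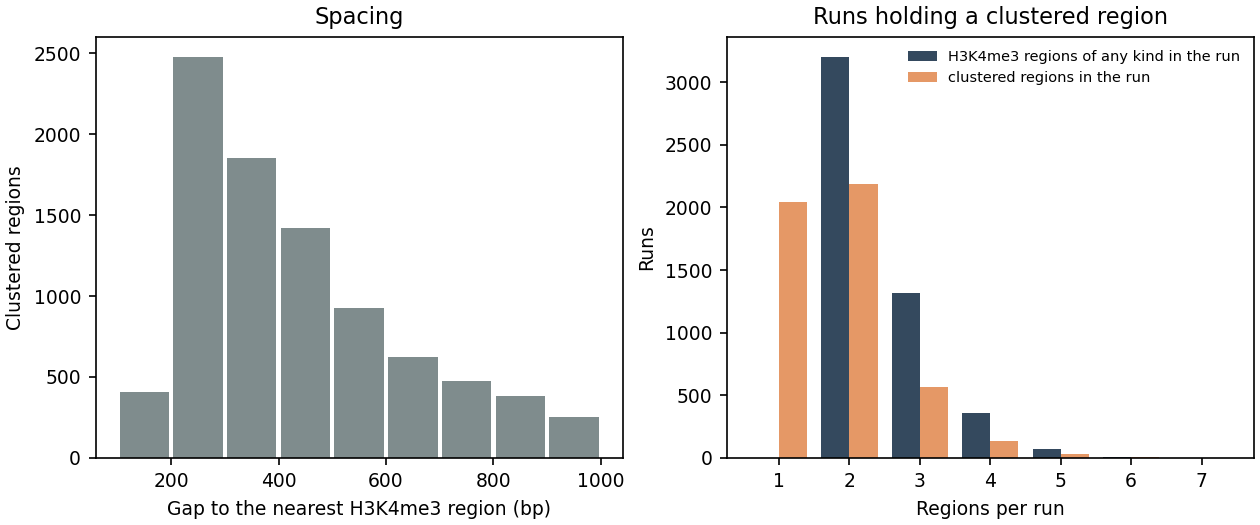
Left, number of clustered regions by the gap in bp to their nearest H3K4me3 region, in 100 bp bins. Right, number of runs by how many H3K4me3 regions (dark) or clustered regions (orange) they hold. Most runs hold 2 regions (3203 of 4958), and the bin of 200 to 299 bp is the highest with 2479 regions.

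Clustered regions carried about 1.9 times the H3K4me3 of solitary ones in every construct. Their mean H3K4me3 level came to 37.2 in WT (36.1 to 38.3), 33.1 in WWD (32.1 to 34.1) and 31.1 in R cells (30.0 to 32.1). Solitary regions had 19.7, 18.0 and 16.7, which made the ratio of clustered to solitary 1.89 in WT (1.80 to 1.98), 1.84 in WWD (1.75 to 1.93) and 1.86 in R cells (1.77 to 1.96). Against regions near H3K4me2 the clustered regions were slightly lower, at 0.899 times in WT (0.872 to 0.928), 0.902 in WWD and 0.897 in R cells. The levels spread widely among members: in WT the 10th percentile was 5 reads, the median 51 reads and the 90th percentile 162 reads, and the highest member held 719 reads. Together the clustered regions took 3.28% of the WT reads for H3K4me3, 2.91% in WWD and 2.74% in R cells.

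**Figure D2:**
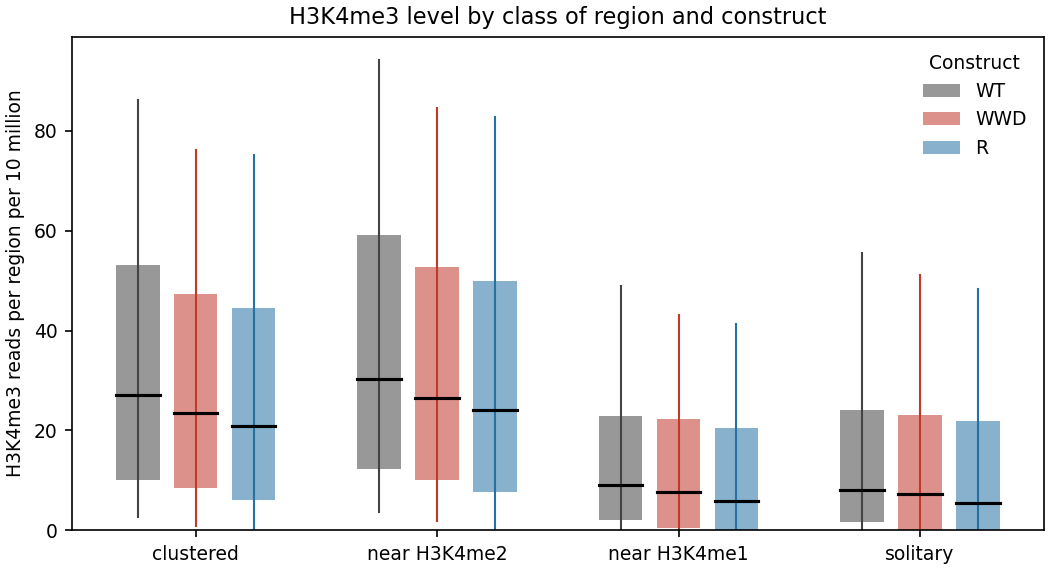
H3K4me3 reads per region per library of 10000000 reads, for 4 classes of H3K4me3 region and 3 constructs. Boxes span the 25th to 75th percentile, black bars mark the median and thin lines run from the 10th to the 90th percentile. The medians of clustered regions were 27.1 (WT), 23.5 (WWD) and 20.8 (R), against 7.98, 7.30 and 5.47 at solitary regions.

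Not every member held the mark that the table is named after. No H3K4me3 read was recovered at 5.42% of the clustered regions in WT (4.96% to 5.92%), 7.91% in WWD (7.35% to 8.49%) and 13.2% in R cells (12.5% to 13.9%), although R had the deepest of the 3 H3K4me3 libraries. The corresponding shares at solitary regions were 19.0%, 25.5% and 35.1%, and over all H3K4me3 regions 8.10%, 11.9% and 17.9%. Reads were present in all 3 constructs at 7355 members (83.5%, against 77.0% of all H3K4me3 regions), and in none at 248 (2.81%, against 4.03%). A further 577 members were empty in R alone, with a median of 14 reads in WT and 19 in WWD. Another 174 were empty in WWD alone and 73 in WT alone. These were weakly marked regions, since members with reads in all constructs had medians of 63, 77 and 74 reads in WT, WWD and R. Together the 3 sets made up 9.35% of the members, against 12.1% of all H3K4me3 regions. Their split by construct was not computed over all regions, so the larger count in R shows nothing particular to the members.

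The position of a region within its run went with its H3K4me3 level. In runs of 3 or more regions, the 1658 interior members had 1.40 times the H3K4me3 of the 2221 end members in WT (1.34 to 1.47), 1.34 times in WWD (1.27 to 1.41) and 1.25 times in R cells (1.18 to 1.33). Members with a neighbour under 300 bp away had 1.18 times the level of members whose neighbour was 500 bp or further away in WT (1.11 to 1.25), and 1.09 times in R (1.03 to 1.17). Members of runs composed of clustered regions alone had 0.758 times the level of members in mixed runs in WT (0.72 to 0.799), with 0.798 in WWD and 0.764 in R cells. These are among 15 H3K4me3 ratios computed between such subsets, all of which had intervals without 1. Whether the calling of the regions ties position to level was not tested.

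Both mutants had somewhat less H3K4me3 than WT at clustered regions, R more so than WWD. Summed reads gave 0.888 times the WT level in WWD (0.877 to 0.899) and 0.835 times in R cells (0.822 to 0.848). Region by region, with a pseudocount of 3.72 added to the level, the median log2 ratio was -0.14 for WWD (-0.17 to -0.12) and -0.28 for R (-0.31 to -0.26). Over all H3K4me3 regions the same medians were -0.13 and -0.25. Centring each library on its median log2 value over the table shifted the comparison by -0.13 for WWD and -0.27 for R and left the clustered regions at -0.01 in both, so the difference at clustered regions was close to that of the whole table.

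Single regions differed in both directions. Compared with WT, 1307 clustered regions (14.8%) were over 2-fold lower in WWD and 664 (7.54%) over 2-fold higher, while 15.0% and 8.44% of all H3K4me3 regions passed those limits. In R, 2140 (24.3%) were over 2-fold lower and 716 (8.13%) over 2-fold higher, against 24.1% and 9.06% of all regions. The share in each direction was thus close to that of the whole table. Centred as above, 1044 members were lower and 857 higher in WWD, and 1591 were lower and 1108 higher in R. With the pseudocount set at the median level instead, 155 were lower and 44 higher in WWD, and 447 were lower and 93 higher in R. The share of all H3K4me3 regions was not computed under either setting, so these counts show nothing particular to the members. Since both mutants are compared with the same WT library, their counts are not independent: 577 members were lower in both, 203 higher in both and 96 lay past the limits in opposite directions. These were 6.55%, 2.30% and 1.09% of the members, against 7.32%, 2.63% and 1.15% of all H3K4me3 regions.

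The strongest run of clustered regions, chr8:87822639-87823976 in mm9, held 4 members with 1382 WT reads of H3K4me3, 1217 in WWD and 1144 in R cells. Per 10000000 reads these were 735 in WT, 468 in WWD and 417 in R cells, so WT was highest. The member with the most H3K4me3 was chr8:75094805-75094904, with 719 reads for WT, 1052 in WWD and 1013 in R cells, or 382, 404 and 369 per 10000000 reads. Its levels lay close together in the 3 constructs. The next, chr8:82235381-82235480, had a level of 319 in WT, 338 in WWD and 428 in R cells.

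Among runs with 6 members, the most in any run, the H3K4me3 level along the run did not keep 1 shape across constructs. At chr5:22938513-22941343 the 6 members held 100, 295, 208, 150, 126 and 85 reads in WT. The same members held 68, 544, 215, 127, 153 and 231 reads in WWD, and 225, 462, 38, 67, 250 and 235 in R. The region at an offset of 460 bp was highest in each construct, while the next one, at 861 bp, was the second highest in WT and the lowest in R. Summed over the run, the levels were 513 in WT, 514 in WWD and 466 in R cells, which is a far smaller difference than at the single regions. It held 2 (WT), 11 (WWD) and 0 (R) Dnmt3a2 reads, with the WWD reads at 4 of the 6 members. At chr2:72816647-72819166 the summed levels were likewise 286, 288 and 300, while the region at 563 bp held 143, 157 and 326 reads. At chr3:135100802-135103390 the sums did differ, at 230, 273 and 170.

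The runs with the largest H3K4me3 differences were picked by size from 1459 runs with above-median signal, so their values describe extremes and their intervals, which cover counting only, make no allowance for the picking. The run furthest below WT in R was chrX:132420143-132420655, with 105 and 157 reads at its 2 members in WT, 68 and 87 in WWD, and 0 and 38 in R. WT exceeded R there 10.1-fold (7.14 to 14.5), and both members were low in R. At chr9:21602062-21602721, WT had 78 and 122 reads, WWD 104 and 177, and R 33 and 8, a 7.12-fold excess of WT over R (5.06 to 10.2). WWD was level with WT in this run. In the other direction, chr7:87337285-87337735 held 19 and 42 WT reads, 91 and 60 in WWD and 92 and 217 in R, 3.47-fold more in R (2.63 to 4.65). For WWD the largest excess over WT was at chr1:135564891-135566760, where 71 reads in WT over 4 members stood against 297 in WWD and 117 in R cells, 3.02-fold more in WWD (2.33 to 3.97). The largest deficit, at chr1:75207185-75207937, was 266 reads in WT against 100 in WWD and 160 in R cells, with WT 3.68-fold higher than WWD (2.91 to 4.68) and most of the difference at the first member (193, 41 and 101 reads).

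**Figure D3:**
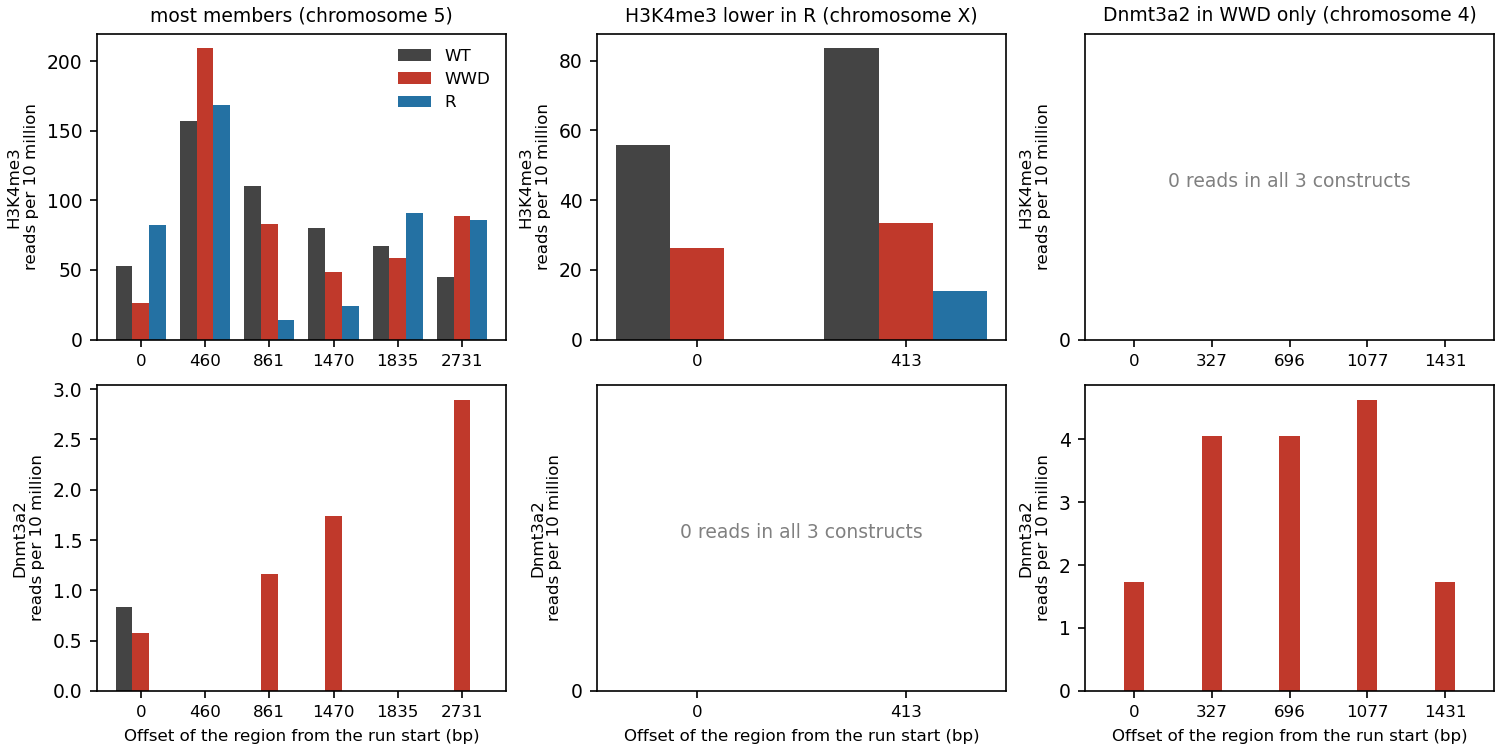
Reads in each region, scaled to a library of 10000000, of 3 runs, for H3K4me3 (top) and Dnmt3a2 (bottom), by offset in bp of the region from the start of the run. Bars are WT (grey), WWD (red) and R (blue), and each panel has its own scale. The chromosome 5 run holds H3K4me3 in every region and construct, the chromosome X run has the least of it in R and 0 Dnmt3a2 reads, and the chromosome 4 run has 28 WWD Dnmt3a2 reads and 0 H3K4me3 reads.

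Neighbours resembled each other in level but hardly in their difference between constructs (density plots of neighbouring pairs). Over 3822 pairs of adjacent clustered regions, Spearman's rho between the H3K4me3 levels of the pair came to 0.56 in WT, 0.50 in WWD and 0.47 in R cells. For the log2 ratio to WT it was 0.05 in both WWD and R. These are correlations across regions of the same libraries, and a region in the middle of a run enters 2 pairs. For the level, rho was 0.60 in WT for pairs under 300 bp apart and 0.51 for pairs 500 to 1000 bp apart, whereas for the log2 ratio of R to WT it was 0.06 and 0.05. A member over 2-fold lower in R had a neighbour of that kind in 28.2% of cases, against 23.5% when the member was not. For regions over 2-fold lower in WWD the shares were 15.4% and 14.5%, and for those over 2-fold higher in WWD 14.9% and 7.12%. In the 1359 pairs where both members exceeded the median level, a subset chosen after the values above were seen, rho for the level came to 0.18 in WT, 0.14 in WWD and 0.09 in R cells. There, rho for the log2 ratio was 0.03 in WWD and -0.0049 in R. The shares were 2.20% and 3.39% for regions over 2-fold higher in WWD, from 1 pair with both members past the limit. They were 8.86% and 10.1% for those lower in WWD, from 12 such pairs. For those higher in R they were 3.12% and 4.79%, from 2 such pairs, where all pairs gave 9.79% and 7.87%. Each reverses the order over all pairs, but with so few pairs no difference can be read from that. For regions over 2-fold lower in R the shares were 21.3% and 17.6%, from 53 such pairs, in the same order as over all pairs.

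**Figure D4:**
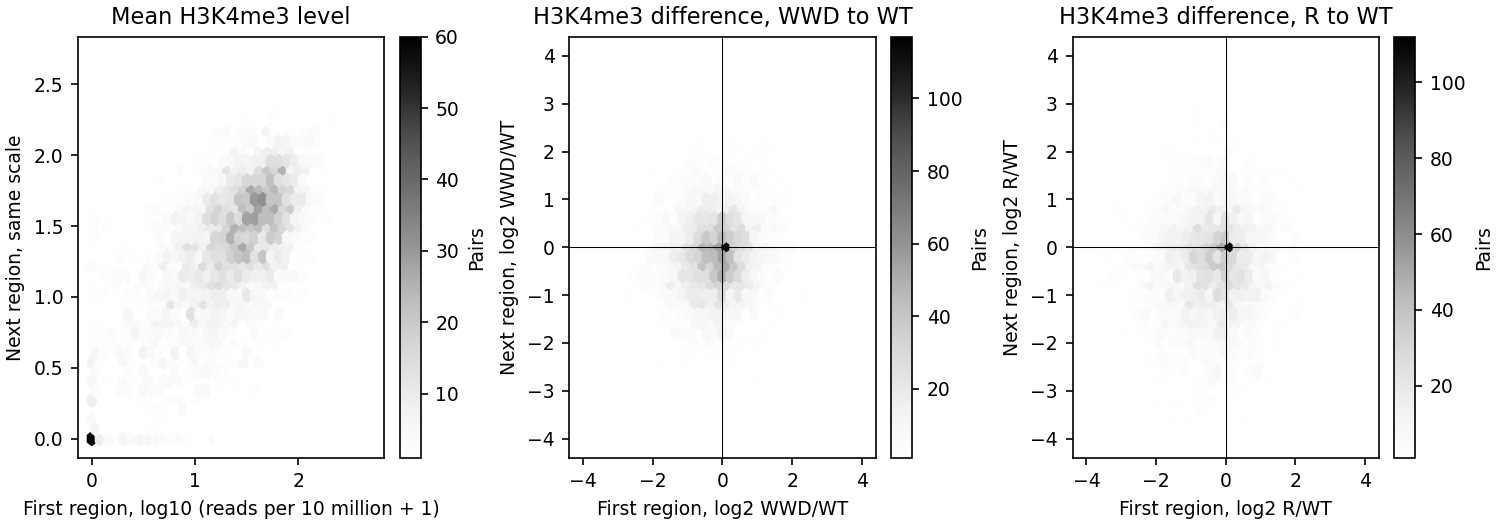
Each panel sets a clustered region (x axis) against the next member of its run (y axis) over 3822 pairs, with darker cells holding more pairs. Left, mean H3K4me3 level over the constructs as log10 of reads per 10000000 plus 1, where rho was 0.59. Middle and right, log2 ratio of H3K4me3 in WWD or R to WT, where rho was 0.05 in each and the cloud has no visible slope.

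The H3K4me3 signal of a pair was also unevenly divided. In runs of 2 clustered regions, the stronger one held a median of 69.0% of the pair's reads with WT, 71.3% in WWD and 75.5% in R cells. It was picked by these same reads in each construct, so it holds the larger part by definition. Of 1494 such runs without ties, the same region was the stronger one in all 3 constructs in 805 (53.9%). In runs of 3, the same region was strongest throughout in 173 of 442 (39.1%). No share expected by chance was computed for either. The mean levels of the 2 regions of a pair differed over 2-fold in 46.1% of all adjacent pairs.

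Dnmt3a2 reads were sparse at clustered regions, and WWD reads were present at more of them than reads of the other constructs. The members took 0.0136% of the Dnmt3a2 library in WT, 0.0407% in WWD and 0.0154% in R. These levels were not set against the rest of the genome or the input, so a read does not by itself mark bound protein. Mean Dnmt3a2 level came to 0.154 in WT (0.142 to 0.168), 0.462 in WWD (0.440 to 0.486) and 0.174 in R cells (0.160 to 0.190), from 3262, 7030 and 3883 reads. WWD thus had 3.0 times the WT level (2.72 to 3.30) and 2.65 times the R level (2.42 to 2.90), while R had 1.13 times the WT level (1.01 to 1.26). At least 1 read was present at 8.93% of members in WT (8.34% to 9.55%), 23.9% in WWD (23.0% to 24.8%) and 9.42% in R cells (8.82% to 10.0%). Over all H3K4me3 regions the shares were 9.89%, 25.5% and 9.79%, so the clustered regions were near the table's background in each construct. The WWD library was the shallowest of the 3, and the shares were not matched for depth. Among the 521 members with reads in at least 2 of the 3 Dnmt3a2 columns, the WWD to WT ratio was 1.82 and the WWD to R ratio 1.56. That filter selects on the compared reads and drops every member with reads in 1 construct alone, so it is no check on the full ratios.

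WWD differed from the other constructs more in how many regions held reads than in the level at those regions. Where any read was present, the mean level was 1.73 (WT), 1.93 (WWD) and 1.85 (R), against 1.76, 1.92 and 1.90 over all H3K4me3 regions. Such a level cannot fall below that of 1 read, which limits how far the constructs can differ in it. At the members it came from means of 4.14, 3.34 and 4.68 reads in libraries of unequal depth. The most at 1 member was 21, 17 and 22 reads. Reads were found in WWD alone at 1638 members (18.6%), in R alone at 520 (5.90%) and in WT alone at 483 (5.48%), and in all 3 at 39 (0.443%). No construct had a read at 5650 members (64.1%). Over all H3K4me3 regions these shares were 19.6%, 5.88%, 5.98%, 0.468% and 61.9% in the same order, near those of the members. In 610 of the WWD regions there was a single read. Requiring 5 reads left 3.47% of members in WT, 5.92% in WWD and 4.23% in R cells.

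Compared with solitary regions, clustered regions held less Dnmt3a2 and more H3K4me3. The level at clustered regions was 0.670 times that at solitary ones in WT (0.596 to 0.752), 0.789 times in WWD (0.735 to 0.846) and 0.758 times in R cells (0.675 to 0.851). The ratio of WWD to WT was 3.0 at clustered and 2.55 at solitary regions, a ratio of ratios of 1.18 (1.03 to 1.34). Its interval included 1 when clustered regions were set against those near H3K4me2 (1.04, 0.925 to 1.18) or against all other H3K4me3 regions (1.09, 0.979 to 1.22). With reads required in at least 2 of the 3 columns, the value against solitary regions was 1.11 (0.929 to 1.32). That filter selects on the compared reads, so it is no check. For R to WT the ratio of ratios was 1.13 (0.974 to 1.32), and for WWD to R it was 1.04 (0.917 to 1.18), both with intervals that include 1. Against regions near H3K4me2 the clustered regions had 0.9995 times the level in WT (0.900 to 1.11), 1.04 times in WWD (0.981 to 1.11) and 1.05 times in R cells (0.950 to 1.17).

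Regions of like H3K4me3 level were then compared, by dividing clustered and solitary regions together into quintiles of their mean H3K4me3 over the 3 constructs. Clustered regions had the lower Dnmt3a2 level in 14 of the 15 combinations of quintile and construct, with ratios of 0.660 to 1.04, and the interval lay below 1 in 5 of them and above 1 in 0. Weighting the solitary quintiles as the clustered regions are distributed gave a clustered to solitary ratio of 0.797 in WT, 0.817 in WWD and 0.816 in R cells. The ratios between constructs did not separate the classes in the same way: of 15 ratios of ratios within quintiles, all had intervals that include 1. In the highest quintile WWD stood at 3.67 times WT at clustered regions (3.02 to 4.46) and 3.71 times at solitary ones (2.77 to 4.96). Over the 5 quintiles the WWD to WT ratio of ratios ran from 0.941 to 1.24, on both sides of 1.

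**Figure D5:**
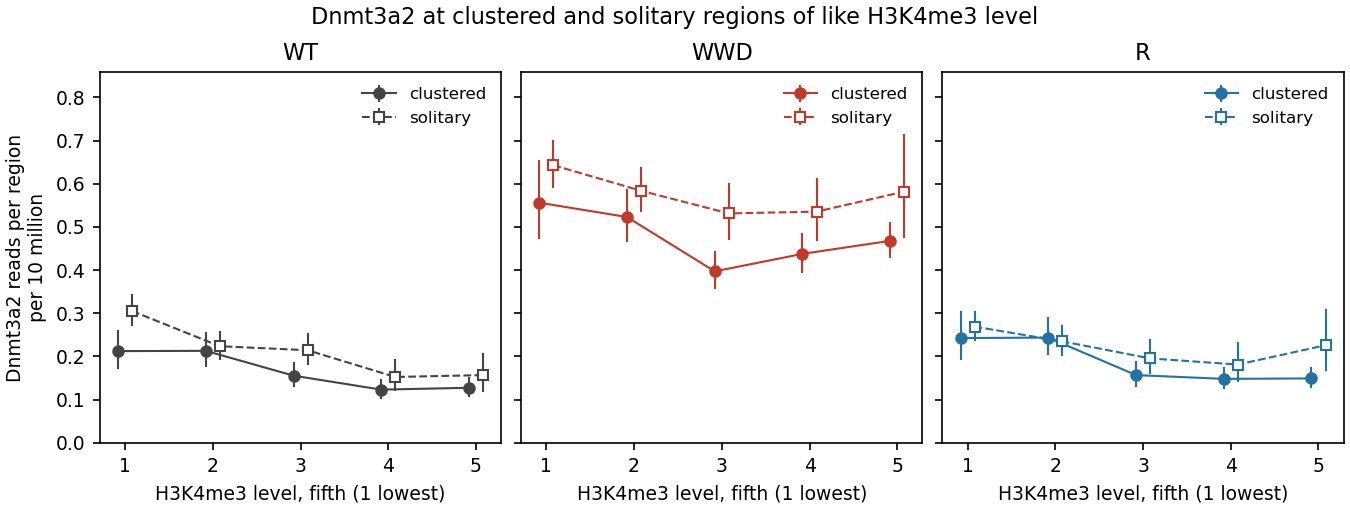
Mean Dnmt3a2 reads per region, scaled to 10000000 library reads (y axis) in quintiles of H3K4me3 level (x axis, 1 the lowest), at clustered (filled, solid) and solitary regions (open, dashed) for each construct. Bars are 95% intervals over 1 Mb segments. Clustered regions lie below solitary ones in 14 of 15 positions, and WWD lies above the other constructs throughout.

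Within the clustered regions, Dnmt3a2 in WT and R was lower where H3K4me3 was higher, and in WWD this difference was smaller. From the lowest to the highest quintile of member H3K4me3, the share of regions with a read went from 12.9% to 7.66% in WT and from 12.9% to 8.56% in R, but from 27.1% to 25.9% in WWD. The level in the highest quintile was 0.584 times that in the lowest in WT (0.453 to 0.753) and 0.593 times in R (0.461 to 0.763). In WWD it was 0.871 times (0.747 to 1.02), with an interval that includes 1. Accordingly the WWD to WT ratio was 2.49 in the lowest quintile (2.07 to 3.0) and 3.72 in the highest (2.94 to 4.70), a 1.49-fold difference (1.11 to 2.00). The WWD to R ratio differed 1.47-fold between the same quintiles (1.10 to 1.95), and the R to WT ratio 1.02-fold (0.721 to 1.43). The steps were not even, since in WWD the middle 3 quintiles had levels of 0.425, 0.419 and 0.429, below both ends. The pattern of WT and WWD was not particular to clustered regions. At solitary regions, from the lowest to the highest joint quintile, the level went from 0.305 to 0.157 in WT. It went from 0.643 to 0.582 in WWD and from 0.269 to 0.226 in R. The WWD to WT ratio there went from 2.11 (1.82 to 2.44) to 3.71 (2.77 to 4.96).

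Position in the run went with Dnmt3a2 in the opposite direction to H3K4me3. Interior members had 0.763 times the Dnmt3a2 of end members in WT (0.590 to 0.988) and 0.670 times in R (0.519 to 0.866), while in WWD the ratio was 0.909 (0.776 to 1.07). The WWD to WT ratio itself did not differ between interior and end members beyond its interval (1.19, 0.885 to 1.60). Members of runs with 4 regions had 0.810 times the WWD level of members of pairs (0.681 to 0.965). These were the 3 of 25 Dnmt3a2 ratios between subsets whose interval did not include 1, and no interval was adjusted for that number. Gap length and the makeup of the run gave ratios of 0.954 to 1.10 in level, all with intervals that include 1.

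Counted by run, runs with a WWD read were nearly as many as runs without. Of the 2918 runs with at least 2 clustered regions, 46.1% had a Dnmt3a2 read in WWD (44.3% to 48.0%), 19.2% in WT (17.8% to 20.7%) and 20.5% in R (19.1% to 22.0%). A run was counted when any of its members held a read. Its shares therefore lie above the 23.9%, 8.93% and 9.42% of single members, which were near the 25.5%, 9.89% and 9.79% of all H3K4me3 regions. No share by run was computed for other regions. Reads were found in no construct in 1094 of the 2918 runs, in exactly 1 construct in 1234, in 2 constructs in 499 and in all 3 in 91. Neighbours shared Dnmt3a2 only slightly. When a member held a WT read its neighbour held one in 11.2% of cases, against 8.61% otherwise. The shares were 25.6% and 23.6% in WWD, and 8.49% and 9.33% in R. For WT pairs under 300 bp apart they were 15.7% and 8.24%, from 17 pairs with a read in both.

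Single runs with many Dnmt3a2 reads were picked by size from the 346 runs with at least 10 reads over the columns, so the same caution on extremes holds. The counting limits and intervals given for such runs treat each read as an independent molecule. PCR reads are not, so these limits do not bound the fold. The largest excess of WWD was at chr4:48695040-48696570, where the 5 members held 3, 7, 7, 8 and 3 WWD reads, 0 reads in WT and R, and 0 H3K4me3 reads in all constructs. The counting limit for WWD over WT there was 9.88-fold, and the ratio against a floor of 3 reads per library was 13.0-fold. Every region of the run held WWD reads, and the run belonged to the set solely through its place in the H3K4me3 table. At chr8:26212091-26212576, by contrast, the members held 14 and 8 WWD Dnmt3a2 reads, 0 in WT and R, and 257, 283 and 417 H3K4me3 reads in WT, WWD and R. The counting limit for WWD over WT in this well-marked run was 7.62-fold, and the ratio against the floor was 10.2-fold.

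Excesses of another construct were in part held by 1 region of the run and in part spread over more. At chr12:52958611-52960074 the members held 9, 4 and 4 WT reads, and at chr8:86424998-86426088 they held 0, 7, 9 and 0. In the examples that follow, most of the reads sat in 1 region. At chr10:79622385-79623642, the first member held 21 WT reads and 0 in WWD and R, and the second held 0, 9 and 1, so that the run as a whole had 22.1 times as much Dnmt3a2 in WT as in R (3.55 to 913, from 1 read in R). At chr2:168514367-168514849, 1 member held 0 WT reads, 9 in WWD and 21 in R cells, its partner held 0 in each, and neither had an H3K4me3 read. The counting limit for R over WT in that run was 4.95-fold, and the ratio against the floor was 6.66-fold. At chr15:38630443-38631151, WT reads numbered 0, 13 and 3 with 0 in WWD and R, and H3K4me3 was mostly found in WWD, with 46 reads against 2 in WT and 0 in R. At chr19:23226006-23227131, R had 0, 6 and 16 Dnmt3a2 reads, and the member with 16 had 0 H3K4me3 reads in R beside one with 90.

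Runs without any H3K4me3 read were few. There were 46 runs of at least 2 clustered regions with 0 H3K4me3 reads in all constructs, holding 101 members, and the longest was the chr4 run of 5 above. Dnmt3a2 reads were present in 14 of the 46 in WWD, 9 in WT and 9 in R. Over all 248 members without H3K4me3 the share with a Dnmt3a2 read came to 12.1% in WT, 27.0% in WWD and 9.68% in R cells, against 8.13%, 23.5% and 8.80% at the 7355 members with H3K4me3 in all constructs.

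Clustered regions on the X chromosome had lower levels in both assays, except that the WT Dnmt3a2 interval includes 1. It held 324 clustered regions, 32.0% of its H3K4me3 regions and the highest share of any chromosome, while the lowest share on an autosome was 24.2% on chromosome 9. Clustered regions on X had 0.525 times the autosomal H3K4me3 level in WT (0.469 to 0.587), 0.571 times in WWD (0.509 to 0.642) and 0.565 times in R cells (0.485 to 0.658). Their Dnmt3a2 level was 0.378 times the autosomal one in WWD (0.249 to 0.574), 0.549 times in WT (0.273 to 1.11) and 0.551 times in R (0.323 to 0.941). Chromosome 8 had the highest Dnmt3a2 level of clustered regions in WWD (0.684) and R (0.259) and the highest median H3K4me3 in all constructs (35.6, 30.2 and 27.0 in WT, WWD and R). Levels were not adjusted for the copy number of chromosomes in these cells, which was not tested.

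H3K4me3 levels just inside and just outside the limits of the rule lay close together. The 247 members whose nearest neighbour was under 100 bp short of the 1000 bp limit had a mean H3K4me3 level of 30.0 in WT and 26.5 in WWD, and the 188 regions within the next 100 bp, just outside the rule, had 27.8 and 23.9. Their WWD Dnmt3a2 levels were 0.472 and 0.598. At the other limit, the 804 members within 100 bp beyond the limit from a region of another table had a WT H3K4me3 level of 48.1 and a WWD Dnmt3a2 level of 0.368, against 48.9 and 0.420 at the 1046 excluded regions within the last 100 bp short of it.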

How the data were processed

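The submitters' processing notes name Bowtie and the mm9 build for the Dnmt3a2 and H3K4me3 ChIP-seq reads. The sources used here give no version, read filter or way of calling regions. The deposited log2 values were scaled by the authors with 1 factor per library, and library totals were taken per the file headers. Their form, log2 of 1 plus the factor times whole reads plus a random amount below 1, was read from the values, since no source at hand describes that random step. Whole reads were recovered by inverting it. At 100 reads the rounding to 2 decimals leaves an uncertainty of 0.352 reads either way.

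Distances are the bases between the nearest ends of regions. Intervals are linearised ratio estimates over 1 Mb segments, exact Clopper-Pearson intervals for shares, order statistics for medians and exact binomial counting intervals for single runs. The pseudocount, 3.72 reads per 10000000, is the 10th percentile of positive H3K4me3 values. Folds against 0 used a floor of 3 reads per library. The interval and recovery code was tested on simulated data. Named runs followed a rule: most members, highest H3K4me3, and largest differences each way, of which examples are given. The members, rule and lists were chosen with earlier results of these data known. The 2 columns that match no listed sample were left out. The gene table at hand is on another assembly, so genes and sequences are not given. Alternatives covered the pseudocount, filters, a cap of 20 reads, centring, the deposited log2 values, read minimums, both distances and summing over runs. Python 3.11.15, numpy 2.4.6, pandas 2.3.3, scipy 1.17.1 and matplotlib 3.10.9 were used.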

Additional observations from a re-analysis of the deposited data

How the results depend on the processing

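Of 81 alternatives over 18 results, 53 stayed within the interval or, for counts, within 1.5 times, 26 moved further and 2 changed direction. No paired analysis was possible because a construct had a single column in each assay, and for the same reason no library could be left out. With reads required in at least 2 of the 3 Dnmt3a2 columns, WWD to WT was 1.82 and WWD to R 1.56, and the WWD to R ratio of clustered over solitary regions turned from 1.04 to 0.979. The filter selects on the compared reads, so these values are no check on the full ratios. The median differences of the deposited log2 values, which are not ratios of means, were 0.25 for WWD and WT, 0.25 for WWD and R, and -0.01 for R and WT, where the ratio of means had been above 1. Most regions held 0 reads there, and at those a deposited value holds only the random amount times the factor of the library. These medians therefore cannot test the ratios, and the change of direction for R and WT says nothing about Dnmt3a2. They could only be counted as moved or as changed in direction. At a minimum of 2 reads the shares with Dnmt3a2 were 6.75% (WT), 17.0% (WWD) and 6.99% (R), and at 5 reads 3.47%, 5.92% and 4.23%.

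The median H3K4me3 log2 ratio of WWD to WT was -0.075 with the pseudocount at the median and -0.012 after centring. That of R to WT was -0.34 with the pseudocount at the 1st percentile, -0.14 with it at the median, -0.31 with reads required in 2 columns and -0.015 after centring. With the pseudocount at the median, 44 members were over 2-fold higher in WWD and 155 lower, against 93 and 447 in R. Summed over 4958 runs, they were 273 (5.51%) higher and 587 (11.8%) lower in WWD, and 309 (6.23%) and 1034 (20.9%) in R. In R, 1108 members were higher after centring, and 476 of 6173 with partners within 500 bp, a smaller set of regions. For these alternative counts no share over all H3K4me3 regions was computed. The causes were not tested otherwise.

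The filter and the cap for the clustered against solitary comparison, and 10 or 15 level groups in place of quintiles, were added after the data were seen. An intended 20 groups could not be formed because over 5% of the regions had 0 reads. Stability of the matched ratios was judged against the interval of the unmatched ratio. A Dnmt3a2 level of 1 member rests on 22 reads at most.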
